A study of Mus musculus with 2 samples.

Results

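The cells described here are CD4 single-positive (SP) thymocytes whose T cell receptor (TCR) beta chain was found, base for base, in at least 1 other cell of the same library. They were chosen by the measured sequence itself. A beta sequence was defined as the TRBV gene, the TRBJ gene and the nucleotide sequence of the CDR3, and a cell was a member when its beta sequence occurred in at least 2 different cell barcodes of its library. By this rule 722 of the 9023 cells with a TRB chain were members, out of 9117 cells in all. Of these, 278 came from the WT library and 444 from the Btla-/- library.

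The study sequenced TCR transcripts with the 10x Genomics V(D)J workflow, which tags each cell with a barcode and each captured transcript with a unique molecular identifier (UMI). There was 1 library of CD4 SP thymocytes from WT (C57BL/6J) mice and 1 from mice without Btla (C57BL/6-Btla KO, written Btla-/- here), all aged 8 to 12 weeks. CD4 SP cells had been enriched by negative selection with a naive CD4 kit. The number of mice behind a library is not given in the sources used here, the libraries hold TCR transcripts only so that no other marker could check the cell type, and with 1 library per genotype no difference between genotypes can be tested.

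BTLA is a co-inhibitory receptor of T cells. In thymocyte development the TRB locus rearranges first, by joining a D to a J segment and then a V segment to the DJ, with bases trimmed and added at random at both joints. A thymocyte with a working beta chain then divides several times before its daughters rearrange the TRA locus, each on its own. Cells descending from one beta rearrangement can therefore carry the same beta chain with different alpha chains, whereas cells that divided after TRA rearrangement carry both chains in common.

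The sequences in most cells are shown first because they set the upper end of the group sizes. Lower-case letters are bases that matched the germline V gene from the left or the germline J gene from the right, and capitals are the junction between them, which matched neither. In the WT library these were:
WT TRBV29/TRBJ2-1, 6 cells: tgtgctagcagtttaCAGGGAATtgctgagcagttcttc
WT TRBV1/TRBJ2-7, 5 cells: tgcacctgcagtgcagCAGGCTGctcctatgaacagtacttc
WT TRBV13-3/TRBJ1-1, 4 cells: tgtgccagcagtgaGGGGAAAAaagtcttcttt
WT TRBV29/TRBJ1-6, 4 cells: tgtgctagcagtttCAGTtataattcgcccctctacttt
WT TRBV12-2/TRBJ2-4, 4 cells: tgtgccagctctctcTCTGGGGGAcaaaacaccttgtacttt

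In the Btla-/- library no sequence was found in more than 3 cells, and the first 5 by the naming rule were:
Btla-/- TRBV12-1/TRBJ1-3, 3 cells: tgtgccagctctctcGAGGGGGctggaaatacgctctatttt
Btla-/- TRBV14/TRBJ2-7, 3 cells: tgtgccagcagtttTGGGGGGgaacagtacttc
Btla-/- TRBV17/TRBJ1-4, 3 cells: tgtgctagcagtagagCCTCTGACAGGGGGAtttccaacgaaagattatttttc
Btla-/- TRBV13-1/TRBJ1-6, 3 cells: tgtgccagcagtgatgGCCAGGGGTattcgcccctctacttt
Btla-/- TRBV16/TRBJ1-5, 3 cells: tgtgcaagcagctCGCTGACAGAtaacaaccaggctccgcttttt

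The runs of G in these junctions can be set beside the germline D segments, both on chromosome 6 of GRCm38. TRBD1 lies at 41533201 to 41533212 and TRBD2 at 41542163 to 41542176, both on the plus strand:
TRBD1: gggacagggggc
TRBD2: gggactgggggggc

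The 278 WT members held 119 shared beta sequences and made up 6.93% of the 4009 WT cells with a TRB chain (exact Clopper-Pearson 95% interval 6.17 to 7.77%, counting error only). The 444 Btla-/- members held 221 shared sequences and made up 8.86% of 5014 cells (8.08 to 9.68%). By the rule members come in groups of cells and are not independent, so both intervals are too narrow. Most shared sequences were pairs, namely 89 of 119 in WT and 213 of 221 in Btla-/-. Larger groups lay mostly in the WT library. It had 20 sequences in 3 cells, 8 in 4 cells, 1 in 5 cells and 1 in 6 cells, against 8 in 3 cells in the Btla-/- library. Sequences in 3 or more cells were thus 25.2% (17.7 to 34.0%) of the shared WT sequences and 3.62% (1.58 to 7.01%) of the shared Btla-/- sequences. They held 100 WT member cells (36% of the members) and 24 Btla-/- member cells (5.41%). Just outside the rule lay 3860 WT and 4731 Btla-/- beta sequences, each found in 1 cell. These shares describe the rule's own measure in 1 library per genotype. The libraries also differed in cell number and in depth, with 80347 TCR UMIs over 4040 WT cells and 75456 over 5077 Btla-/- cells, and genotype and library cannot be told apart.

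**Figure D1:**
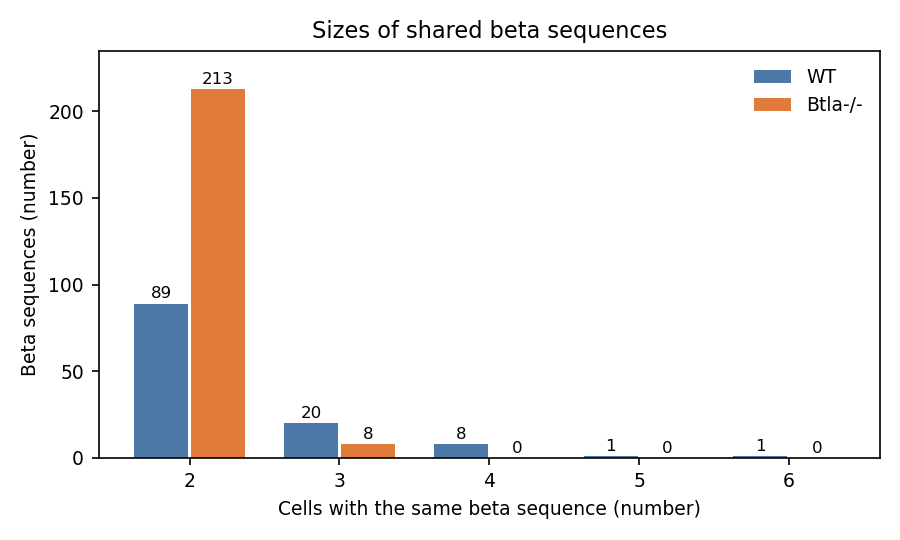
Number of shared beta sequences (y axis) by the number of cells of one library that carried the same sequence (x axis), for the WT (blue) and Btla-/- (orange) libraries. Pairs of cells made up 89 WT and 213 Btla-/- sequences, and sequences in 4 to 6 cells occurred in the WT library only.

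Sharing took place within a library and hardly at all between libraries. Over all possible pairs of cells, 219 of 8034036 WT pairs had the same beta sequence (27.3 per 1000000 pairs), as did 234 of 12567591 Btla-/- pairs (18.6 per 1000000). Between a WT and a Btla-/- cell it was 3 of 20101126 pairs (0.149 per 1000000), so that the rates within the WT and Btla-/- libraries were 183 and 125 times higher. Both ratios rest on these 3 pairs and depended on the definition of a beta sequence. Pairs with the same V gene, J gene and CDR3 amino acid sequence but other bases gave a different picture. There were 11 such pairs in WT (1.37 per 1000000), 7 in Btla-/- (0.557 per 1000000) and 18 between libraries (0.895 per 1000000), so the rate between libraries lay between those within them. Cells of a library had their mice and their 10x reaction in common, and these cannot be told apart.

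None of the 119 WT and none of the 221 Btla-/- shared sequences was found in the other library, which allows shares of up to 2.52% and 1.36%, and so no sequence was shared in both. By amino acids, 1 WT (0.840%) and 1 Btla-/- sequence (0.452%) had a match there. Among beta sequences in 1 cell the corresponding shares were 18 of 3860 (0.466%) in WT and 17 of 4731 (0.359%) in Btla-/-, inside the intervals of the shared ones. The 3 beta sequences that did occur in both libraries were each in 1 cell per library, and so outside the rule. Their longest unbroken run of D segment bases took up 7 of 7, 7 of 9 and 7 of 7 junction bases. Over all sequences in 1 cell the median of this run was also 7 bases in either library, so its length was not particular to these 3. Its share of the junction was not compared. These 3 sequences had junctions of 7, 9 and 7 bases, against medians of 10 in WT and 11 in Btla-/- sequences in 1 cell. They are shown for comparison:
both TRBV12-1/TRBJ1-2: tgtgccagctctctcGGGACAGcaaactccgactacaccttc
both TRBV12-1/TRBJ2-7: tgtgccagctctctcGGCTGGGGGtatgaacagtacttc
both TRBV2/TRBJ2-5: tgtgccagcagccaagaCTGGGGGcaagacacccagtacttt

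The alpha chain was not used to choose the cells, and where it was read in both cells of a pair it was usually the same. The files hold a TRA chain for 87 of the 278 WT members and 150 of the 444 Btla-/- members. Consequently, of the 219 WT pairs with the same beta sequence, 136 had no TRA chain in either cell, 50 had it in 1 cell and 33 in both. In 28 of these 33 pairs (84.8%, 68.1 to 94.9%) the cells had at least 1 alpha chain with the same TRAV gene, TRAJ gene and CDR3 bases, and in 5 they had not. Of the 234 Btla-/- pairs, 133 had no TRA chain, 46 had it in 1 cell and 55 in both, and in 41 of the 55 (74.5%, 61 to 85.3%) the alpha chain was identical. The intervals of the libraries overlapped, and are too narrow where several pairs come from 1 group of cells. Among pairs of cells with different beta sequences and TRA in both, an identical alpha occurred in 17 of 1398595 WT pairs and 28 of 1504190 Btla-/- pairs, which is 12.2 and 18.6 per 1000000.

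**Figure D2:**
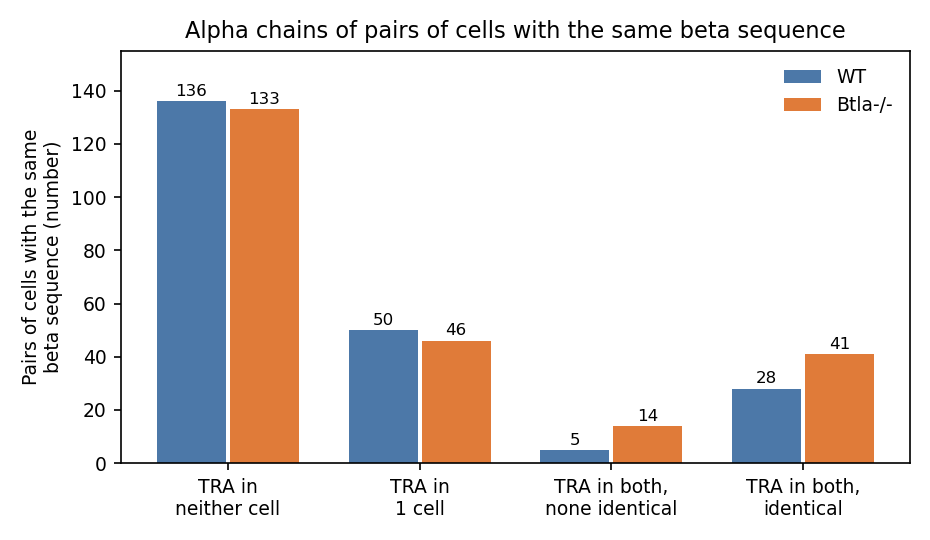
Pairs of cells with the same beta sequence (y axis, number) in the WT (blue) and Btla-/- (orange) libraries, split by whether a TRA chain was found in neither cell, in 1 cell, or in both with no chain or with a chain in common. Pairs without TRA in either cell were the most numerous in both libraries, and identical alphas (28 and 41 pairs) outnumbered different ones (5 and 14 pairs).

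Read from the alpha side, 45 WT pairs of cells with both chains had an identical alpha chain, and 28 of them (62.2%, 46.5 to 76.2%) also had the same beta sequence. In the Btla-/- library it was 41 of 69 pairs (59.4%, 46.9 to 71.1%). Counted by sequence, 30 WT shared sequences had TRA in at least 2 cells. In 25 of them (83.3%, 65.3 to 94.4%) all these cells had an alpha in common, and in 5 none did. Of the 56 such Btla-/- sequences, 43 (76.8%, 63.6 to 87.0%) had an alpha common to all, 12 had none, and in 1 only some of the cells matched. Cells that shared 2 beta sequences count here under both, namely 3 WT cells and 3 Btla-/- pairs, all with an identical alpha. The sequences are therefore not all independent, and these intervals are too narrow. The WT sequences in 3 or more cells gave 10 pairs with TRA in both cells, and all 10 were identical. These pairs came from 6 groups of cells, and 6 of them from 2 groups of 3 cells each, so that they are not independent. The corresponding Btla-/- sequences gave 4 such pairs, of which 2 were identical.

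The identical alphas were not a few recurrent chains. The 25 alpha and beta combinations of the WT library used 17 TRAV and 20 TRAJ genes, and the 44 of the Btla-/- library used 29 TRAV and 27 TRAJ genes. Cells that shared 2 beta sequences enter these counts as 2 combinations with the same alpha. No WT combination lay in more than 3 cells, and no Btla-/- combination in more than 2. Their alpha chains rested on few molecules, with medians of 2 TRA UMIs in the lower and 5 in the higher cell in WT, and of 2 and 4 in Btla-/-. Examples are given as the beta CDR3, marked as above, followed by the CDR3 of the common alpha, in lower case throughout because no junction was determined for it:
WT beta TRBV13-1/TRBJ2-1, 3 cells: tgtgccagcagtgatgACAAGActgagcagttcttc
WT alpha TRAV14-2/TRAJ40, 3 cells: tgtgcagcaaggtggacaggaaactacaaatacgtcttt
WT beta TRBV12-2+TRBV13-2/TRBJ2-7, 3 cells: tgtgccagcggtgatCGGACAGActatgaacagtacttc
WT alpha TRAV10N/TRAJ13, 2 cells: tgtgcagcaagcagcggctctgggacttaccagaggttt
Btla-/- beta TRBV1/TRBJ1-2, 2 cells: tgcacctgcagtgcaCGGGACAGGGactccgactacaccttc
Btla-/- alpha TRAV13-4-DV7/TRAJ42, 2 cells: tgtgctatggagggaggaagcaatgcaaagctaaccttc
Btla-/- beta TRBV1/TRBJ2-4, 2 cells: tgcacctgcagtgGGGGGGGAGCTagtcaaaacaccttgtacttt
Btla-/- alpha TRAV4-2/TRAJ18, 2 cells: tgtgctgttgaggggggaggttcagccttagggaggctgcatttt

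The WT TRBV13-1/TRBJ2-1 sequence had 11, 4 and 2 TRB UMIs in its 3 cells, and its TRAV14-2/TRAJ40 alpha had 4, 4 and 1 UMIs. Every cell of this group thus had both chains in common. The WT TRBV12-2+TRBV13-2/TRBJ2-7 sequence, whose V call in the files names both genes jointly, had 5, 4 and 2 TRB UMIs, and 2 of its 3 cells had the TRAV10N/TRAJ13 alpha with 2 and 1 UMIs. The Btla-/- TRBV1/TRBJ1-2 sequence had 26 and 16 TRB UMIs and 7 and 6 UMIs of its alpha, among the better covered pairs. The Btla-/- TRBV1/TRBJ2-4 sequence had 10 and 8 TRB UMIs with 5 alpha UMIs in either cell.

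Among the sequences in most cells, alpha chains were sparse. The WT TRBV29/TRBJ2-1 sequence had 12, 9, 8, 7, 5 and 4 TRB UMIs in its 6 cells, and the TRBV1/TRBJ2-7 sequence 9, 8, 7, 6 and 4 in its 5 cells. No TRA chain was found in any of these cells, so their alpha chains could not be compared. The TRBV13-3/TRBJ1-1 sequence had 7, 7, 5 and 3 TRB UMIs, and TRA in 2 of its 4 cells, both with the same TRAV12-3/TRAJ49 alpha at 2 UMIs each. The TRBV29/TRBJ1-6 sequence, with 10, 5, 5 and 3 TRB UMIs, also had TRA in 2 of 4 cells, and these had a different TRAV12-3/TRAJ49 alpha in common, at 5 and 1 UMIs. In the Btla-/- library the TRBV14/TRBJ2-7 sequence had 7, 4 and 4 TRB UMIs and a TRAV14N-2/TRAJ22 alpha in 2 of its 3 cells. The cells of the TRBV16/TRBJ1-5 sequence had 33, 16 and 13 TRB UMIs and no TRA chain.

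One Btla-/- sequence held both situations. TRBV12-1/TRBJ1-3 was read with 18, 17 and 2 TRB UMIs, and all 3 cells had a TRA chain. The alpha was the same TRAV6N-6/TRAJ13 chain in 2 cells, at 4 and 3 UMIs, and a TRAV3N-3/TRAJ4 chain in the other cell, at 2 UMIs. It was the 1 sequence of either library in which only some cells with TRA matched.

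Some cells had the same beta but no alpha read in common. All 5 WT sequences of this kind and the first 6 of 12 Btla-/- ones were pairs of cells. They are shown because the TRA chains read in the 2 cells differed. Whether a chain that was not read was common to them is unknown. For 1 pair of each library the alphas follow the beta:
WT beta TRBV12-2+TRBV13-2/TRBJ2-4: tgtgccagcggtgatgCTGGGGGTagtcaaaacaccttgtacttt
WT alpha TRAV14-3/TRAJ40, 1 cell: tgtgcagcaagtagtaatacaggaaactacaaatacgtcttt
WT alpha TRAV4-3/TRAJ27, 1 cell: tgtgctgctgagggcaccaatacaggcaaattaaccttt
Btla-/- beta TRBV13-1/TRBJ2-7: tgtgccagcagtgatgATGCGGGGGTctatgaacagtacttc
Btla-/- alpha TRAV13-1/TRAJ30, 1 cell: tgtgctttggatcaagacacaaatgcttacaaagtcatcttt
Btla-/- alpha TRAV9-2/TRAJ44, 1 cell: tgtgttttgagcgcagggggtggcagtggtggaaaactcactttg

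This WT pair had 15 and 12 TRB UMIs, and 7 and 5 UMIs of its alphas. The Btla-/- pair had 20 and 15 TRB UMIs, and 3 UMIs of either alpha. The other WT sequences with different alphas were TRBV12-2/TRBJ1-2 (26 and 6 TRB UMIs, with 3 alphas over its 2 cells), TRBV12-2+TRBV13-2/TRBJ1-3 (15 and 5), TRBV13-1/TRBJ2-4 (10 and 5) and TRBV26/TRBJ1-6 (4 and 2). The other named Btla-/- sequences of this kind were TRBV10/TRBJ2-1 (4 and 3 TRB UMIs), a second TRBV12-1/TRBJ1-3 sequence (14 and 8), TRBV12-2+TRBV13-2/TRBJ2-2 (13 and 5), TRBV12-2+TRBV13-2/TRBJ2-5 (30 and 20) and TRBV15/TRBJ2-3 (6 and 3). Junctions among these 11 sequences ran from 8 bases, as in the WT pair shown, to 22 bases in the last one:
Btla-/- beta TRBV15/TRBJ2-3: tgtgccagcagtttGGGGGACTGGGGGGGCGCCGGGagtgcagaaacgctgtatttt

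Some member cells had 2 beta chains in common. A T cell usually shows only 1 working beta chain, as the other allele is kept from rearranging, but a minority carry both. In the WT library 3 cells, and in the Btla-/- library 3 separate pairs of cells, held the same 2 beta sequences, and in each of these 4 groups every cell also had the same alpha chain. In the WT group the TRBV12-2/TRBJ2-5 chain was read with 21, 12 and 8 UMIs and the TRBV13-1/TRBJ2-7 chain with 9, 8 and 6. The common alpha was TRAV8D-1/TRAJ48, and 1 cell also had a TRAV9-4/TRAJ49 chain on 1 UMI:
WT first beta TRBV12-2/TRBJ2-5: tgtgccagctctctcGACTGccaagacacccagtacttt
WT second beta TRBV13-1/TRBJ2-7: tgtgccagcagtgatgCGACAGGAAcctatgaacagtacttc
WT alpha TRAV8D-1/TRAJ48: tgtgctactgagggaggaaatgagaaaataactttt

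A TRBV16 chain was 1 of the 2 betas in all 3 Btla-/- pairs, but the WT group had none. These few pairs were added after their values were seen. Over the Btla-/- library, TRBV16 made up 5.88% of shared sequences and 6.32% of those in 1 cell. In the first pair it was joined to TRBJ1-1 (8 and 5 UMIs) beside TRBV12-2/TRBJ1-1 (13 and 11) and the alpha TRAV4N-4/TRAJ56. In the next it was joined to TRBJ2-1 (5 and 2 UMIs) beside TRBV12-2/TRBJ2-4 (12 and 8) and TRAV7-3/TRAJ15. In the last it was joined to TRBJ2-5 (15 and 4 UMIs) beside TRBV15/TRBJ1-4 (15 and 6) and TRAV12N-2/TRAJ23. More than 1 TRB chain was present in 9 WT members (3.24%) against 123 other WT cells (3.30%), and in 24 Btla-/- members (5.41%) against 143 others (3.13%). A cell with more than 1 TRB chain had more than 1 way to meet the rule, so these shares are not like for like. The 9 WT and 24 Btla-/- cells include the 3 and 6 that held 2 shared sequences.

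Where a sequence lay in exactly 2 cells, TRA was more often in both of them than in 1. This was 23 against 17 WT sequences and 54 against 42 Btla-/- sequences. Pairs from sequences in 3 or more cells did not show this. They had TRA in both cells for 10 and in 1 cell for 33 in WT, and for 4 and 4 in Btla-/-. In sequences found in exactly 2 WT cells, 46 of the 63 cells whose partner had a TRA chain had one as well (73.0%), against 17 of the 115 whose partner had none (14.8%). In the Btla-/- library the values were 108 of 150 (72.0%) and 42 of 276 (15.2%). As each pair enters these counts from both sides, the cells are not independent and no interval is given. The TRB UMI numbers of the 2 cells were also closer to each other than over all pairs of chains. The median ratio of the higher to the lower was 1.6 in WT and 1.44 in Btla-/-, against 2.1 and 2 over all pairs of chains found in 1 cell. It was at most 2 in 66.3% of WT and 78.9% of Btla-/- pairs, against 49.1% and 51.1% of all pairs.

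WT members were read less deeply than other WT cells. In the Btla-/- library the difference was small, and the intervals of the 2 medians met at 10. As the 2 cells of a pair had similar UMI numbers, the intervals for members are too narrow. A WT member's TRB chain had a median of 7 UMIs (95% interval of the median 7 to 8), and chains found in 1 cell had 14 (13 to 14). The WT median was 8 (7 to 10) in sequences of 2 cells and 6 (5 to 7) in sequences of 3 or more cells. The Btla-/- medians were 9 (8 to 10) and 11 (6 to 13), the latter on 24 chains, and these 2 intervals overlapped. In the Btla-/- library the median was 9 (8 to 10) in all members and 10 (10 to 10) in chains of 1 cell, with upper quartiles of 13 and 17. Summed over its cells, a shared sequence had a median of 19 UMIs in WT (16 to 21) and 18 in Btla-/- (16 to 20). Reads per UMI were alike, with medians of 327 in WT members against 336 in chains of 1 cell, and 288 against 294 in Btla-/-. The part of this depth difference in the group sizes was not tested.

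**Figure D3:**
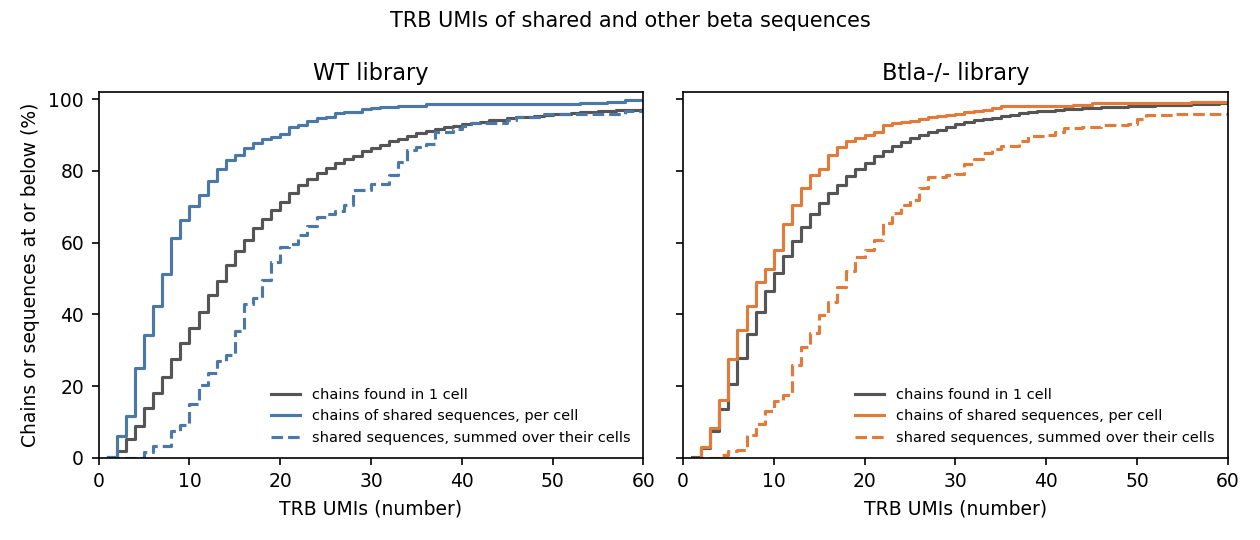
Cumulative percent of chains (solid lines, y axis) by TRB UMIs per chain (x axis, cut at 60) for chains found in 1 cell (grey) and for member cells of the WT (blue) and Btla-/- (orange) libraries; dashed lines give shared sequences with UMIs summed over their cells. The WT member line lies left of the grey line (medians 7 and 14), and the Btla-/- member line lies left of it by less (medians 9 and 10, upper quartiles 13 and 17).

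A TRA chain was found in 31.3% of WT members (25.9 to 37.1%), against 42.6% (41.0 to 44.2%) of WT cells with a beta sequence found in 1 cell. In the Btla-/- library the shares were 33.8% (29.4 to 38.4%) and 34.9% (33.6 to 36.3%). At matched TRB depth, WT members with 5 to 9 TRB UMIs had TRA in 28 of 115 cells (24.3%), against 401 of 890 other cells (45.1%). Of these members, those of sequences in 2 cells had TRA in 31.2% (20 of 64) and those of sequences in 3 or more cells in 15.7% (8 of 51). The WT shares were 42.9% of members and 41.9% of others at 1 to 4 UMIs, 36.9% and 46.9% at 10 to 19, and 23.3% and 39.9% at 20 or more. Since TRA was found together in sequences of exactly 2 cells, the members are not independent. The intervals given for their overall TRA shares are therefore too narrow. In Btla-/- cells the shares were 37.5% of members and 35.9% of others at 1 to 4 UMIs, and 37.0% of both at 5 to 9. They were 33.1% and 38.5% at 10 to 19, and 26.5% and 30.6% at 20 or more.

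Barcodes of cells with the same beta sequence were not near-copies of each other. This measures only how alike the barcodes were, and whether 2 unlike barcodes came from 1 cell was not tested. Over the 16 barcode bases, WT pairs differed at 6 to 16 positions and Btla-/- pairs at 6 to 16, with means of 12.0 and 11.7, against 12.0 over all pairs of either library, so that the Btla-/- mean was slightly lower. No pair of cells with the same beta had barcodes 1 base apart. This was fixed in advance, as over all pairs of cells with TRB the lowest distance was 2 in either library. The libraries had 30 barcodes in common, of which 4 were members in WT and 2 in Btla-/-.

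The shared sequences used the V and J genes of the whole library. They used 19 of the 20 WT TRBV genes and all 21 Btla-/- TRBV genes that made up at least 1% of the sequences found in 1 cell, and all 12 such TRBJ genes in both libraries. The joint TRBV12-2+TRBV13-2 call was counted here as a TRBV gene of its own. For none of these genes did the exact 95% interval of its share among shared sequences lie apart from that among sequences in 1 cell. In WT the most used were TRBV13-1 with 11 of 119 sequences (9.24%, against 5.91% of sequences in 1 cell), and the joint TRBV12-2+TRBV13-2 call and TRBV3 with 9 each (7.56%, against 7.95% and 6.27%). In Btla-/- they were TRBV15 with 19 of 221 (8.6%, 5.26 to 13.1%, against 5.24%), TRBV13-1 with 17 (7.69%, against 6.59%) and the joint call with 15 (6.79%, against 7.93%).

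The largest differences in V share rested on few sequences. In WT, TRBV29 made up 8 shared sequences (6.72%, against 3.73%), and these held 26 member chains, including the group of 6 cells. TRBV14 made up none of the 119 WT shared sequences, which allows up to 2.52%, against 2.49% of those in 1 cell, whereas in Btla-/- it made up 10 of 221 (4.52%, against 3.02%). TRBV17 made up 12 Btla-/- sequences (5.43%, 2.84 to 9.29%, against 2.37%, 1.95 to 2.84%), the closest approach of the intervals, which met at 2.84%. In WT it made up 2 (1.68%, against 2.88%). TRBV20 made up 4 Btla-/- sequences (1.81%, against 3.57%). All 497 chains that the files name TRBV10 carried the framework end of Trbv4 of GRCm38 (chromosome 6, 41059394 to 41059886) and were read against that gene.

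**Figure D4:**
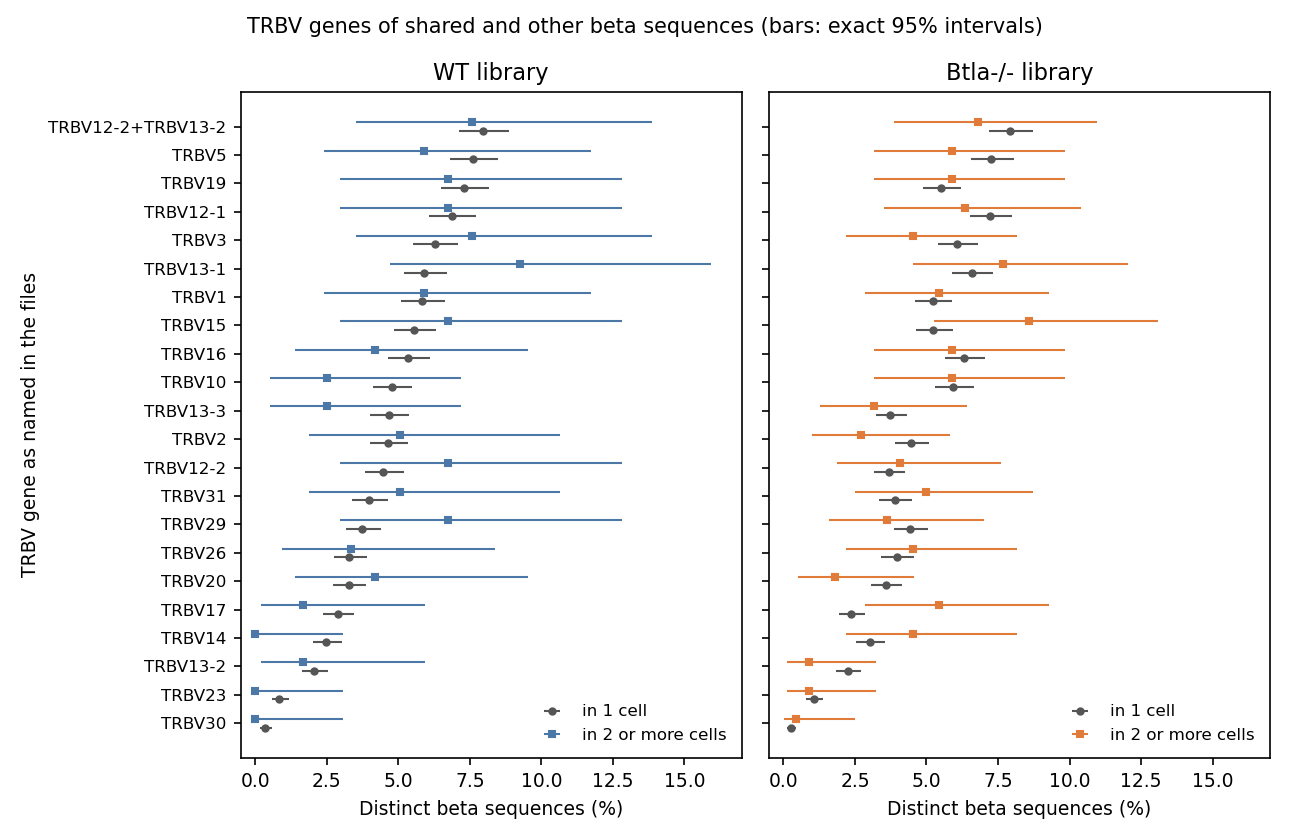
Share of distinct beta sequences (x axis, percent) by TRBV gene as the files name it (y axis) for sequences in 1 cell (grey circles) and in 2 or more cells (coloured squares) of the WT and Btla-/- libraries, with exact 95% intervals. The intervals of grey and coloured points overlap for the genes drawn, and come closest for TRBV17 in Btla-/- (5.43% against 2.37%).

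Among J genes, TRBJ2-7 (23 of 119, 19.3%, against 15.6%), TRBJ1-1 (18, 15.1%, against 11.7%) and TRBJ2-4 (13, 10.9%, against 8.42%) led in WT. TRBJ2-5 and TRBJ2-7 (34 of 221 each, 15.4%, against 10.8% and 14.8%) and TRBJ1-1 (29, 13.1%, against 11%) led in Btla-/-. TRBJ2-2 was found in 2 WT shared sequences (1.68%, against 5.73%) and TRBJ2-3 in 6 (5.04%, against 9.04%), and TRBJ2-3 in 16 Btla-/- ones (7.24%, against 9.43%). Genes of the TRBJ1 cluster made up 44.5% (35.4 to 53.9%) of WT shared sequences against 39.6% of those in 1 cell, and 37.1% (30.7 to 43.8%) of Btla-/- shared sequences against 40.4%. The 119 WT sequences spread over 90 V and J combinations with at most 4 in one, and the 221 Btla-/- sequences over 136 with at most 8.

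CDR3 length and junction were close to those of sequences in 1 cell. WT shared sequences had a CDR3 of 14.1 ± 1.55 amino acids (SD, n = 119 sequences) against 14.2 ± 1.51 (n = 3860), a difference of -0.168 (counting interval -0.451 to 0.115). Btla-/- shared sequences had 14.3 ± 1.51 (n = 221) against 14.3 ± 1.52 (n = 4731), a difference of 0.0501 (-0.154 to 0.254). The junction, counted as the bases left after matching V and J and so shortened wherever an added base matches by chance, had 10.3 ± 3.55 bases in WT shared sequences against 10.6 ± 4.0. In Btla-/- it had 10.9 ± 3.91 against 10.7 ± 4.02. The differences of -0.308 (-0.959 to 0.342) and 0.176 (-0.352 to 0.704) bases both had intervals that held 0. The 30 WT sequences in 3 or more cells had 13.6 ± 1.79 amino acids and 9.30 ± 3.68 junction bases.

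The junctions of the shared sequences ran from 2 to 19 bases in WT and from 1 to 25 in Btla-/-. A run of at least 5 bases of TRBD1 or TRBD2, in the same orientation, stood in 89 of 119 WT junctions (74.8%, 66.0 to 82.3%) against 77.6% of those in 1 cell, and in 172 of 221 Btla-/- junctions (77.8%, 71.8 to 83.1%) against 77.6%. Another beta sequence of the same library with the same V and J genes and a CDR3 differing at 1 base existed for 2 of 119 WT (1.68%) and 3 of 221 Btla-/- shared sequences (1.36%), against 0.984% and 0.824% of those in 1 cell.

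**Figure D5:**
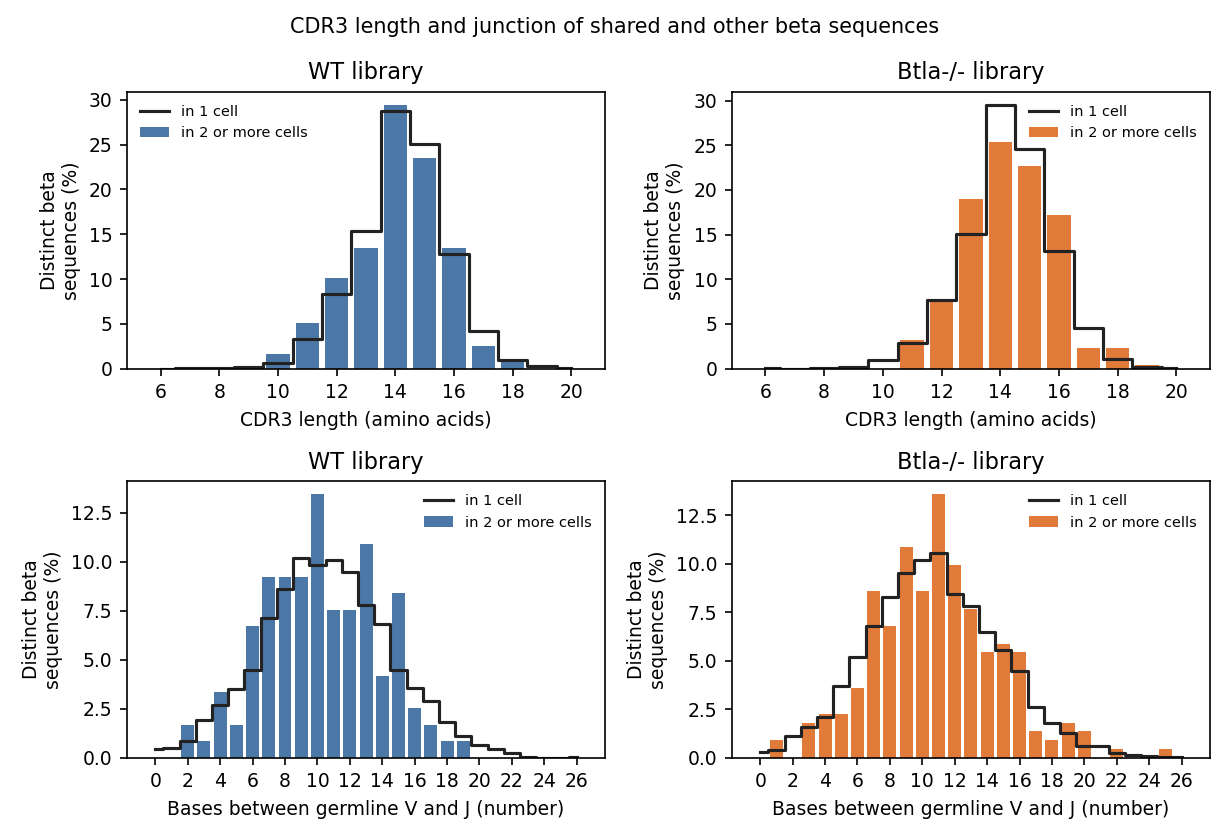
CDR3 length in amino acids (upper panels, x axis) and junction bases between germline V and J (lower panels, x axis, cut at 26) as percent of distinct beta sequences (y axis) in 2 or more cells (bars) and in 1 cell (black line) of the WT (blue) and Btla-/- (orange) libraries. Bars and lines peak at 14 amino acids in both libraries, and the junction bars peak at 10 bases in WT and 11 in Btla-/-.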

How the data were processed

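TCR transcripts of CD4 SP thymocytes were read in 1 WT and 1 Btla-/- library. Per the methods and the labels, the authors assembled contigs with Cell Ranger 7.2.0 and a GRCm38 V(D)J reference. The deposited contig annotations give raw read counts and UMI counts per contig of a called cell, without normalization. Every productive contig was used and no step removed droplets with 2 cells. The authors' summary tables of V genes, clones and CDR3 lengths were not used. Total depth was 26700294 reads and 80347 UMIs in WT, and 22026825 reads and 75456 UMIs in Btla-/-. The median cell had 15 and 12 TCR UMIs.

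Germline V, D and J bases were taken from GRCm38 (RefSeq genome, GENCODE M21 gene models), placed by the last 25 bases of framework 3 and the first 20 of framework 4. Chains with the joint TRBV12-2+TRBV13-2 call were matched to TRBV13-2. Python 3.11.15, pandas 2.3.3, numpy 2.4.6, scipy 1.17.1 and matplotlib 3.10.9 were used, and the code was tested on simulated data. Intervals are exact Clopper-Pearson at 95% and cover counting error only; medians carry order-statistic intervals. A count of 0 was taken to allow up to 3 counts. Cells are not replicates, so no test was made.

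The members, lists and rules were chosen with earlier results of these data known. Named in each library were the 5 sequences in most cells, up to 6 with an identical alpha and up to 6 with alphas but none identical (some of these without their bases), the 3 most used V and J genes, and the 3 V and 2 J genes, of those at 1% or more, whose shares differed most. Cells that share 2 betas and sequences in 1 cell of both libraries were added after their values were seen. Alternatives kept contigs of 3 or more UMIs, cells with a single TRB chain or the TRB contig with most UMIs, used other definitions of a beta sequence, or left out barcodes of both libraries, barcodes 1 base apart, or cells with an identical alpha.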

Additional observations from a re-analysis of the deposited data

Results flagged for a closer look

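Several differences between shared and other beta sequences had opposite signs in the WT and Btla-/- libraries, and none of these contrasts between libraries was tested. With 1 library per genotype a sign can differ by counting error alone, and each gene's intervals for shared and other sequences overlapped, narrowly for TRBV17 in Btla-/-. CDR3 length was -0.168 amino acids in WT and 0.0501 in Btla-/- (shared minus other), and the junction was -0.308 and 0.176 bases. For the share of sequences that used a gene, the difference for TRBJ2-5 was -2.92 percentage points in WT and 4.58 in Btla-/-, for TRBV14 -2.49 and 1.5, and for TRBV17 -1.19 and 3.06. The difference for TRBV20 was 0.937 percentage points in WT and -1.76 in Btla-/-, and for TRBV29 it was 2.99 and -0.819.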

How the results depend on the processing

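Over 21 results and 9 alternatives, 178 of 189 values stayed within the counting interval or within 1.5 times the count, and 11 moved. With contigs of at least 3 UMIs, the share of members with a TRA chain was 15.9% in WT and 18.6% in Btla-/-, and with cells of exactly 1 TRB chain it was 29.2% in Btla-/-. Pairs with the same beta between libraries were 0.846 per 1000000 by CDR3 bases alone and 1.04 by amino acids, which both widen the definition. By amino acids the rates within libraries were 28.6 per 1000000 in WT and 19.2 in Btla-/-. The ratio of within to between was thus far lower than in the main setting. Leaving out cells with an identical alpha lowered the member share to 5.71% in WT and 7.30% in Btla-/-, the share with TRA to 16.4% and 18.6%, and the share of pairs with an identical alpha, by construction, to 0% and 0%. Leaving out barcodes 1 base apart changed nothing, as there were none, so its values stayed the same by construction. The number of shared sequences ranged from 96 to 128 in WT and from 177 to 229 in Btla-/-. In Btla-/- the differences in CDR3 length (-0.00235 to 0.0946) and junction (-0.0103 to 0.376) changed sign across alternatives. No paired analysis was possible because each genotype has 1 library. TRA was read in 31.3% of WT and 33.8% of Btla-/- members, with a median of 3 TRA UMIs, which limits the alpha comparison to few pairs.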
